A study of Mus musculus with 54 samples.

Results

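The 9 genes described here encode enzymes that desaturate or lengthen fatty acids: Fads1, Fads2, Fads3, Fads6, Scd1, Scd2, Elovl2, Elovl5 and Elovl6. They were taken by symbol from 23284 genes listed in 2 tables of read counts from mouse testis, and all 9 were found in both tables. The members were chosen by name with earlier results of these data known, in which several of them were higher in the testis of mice lacking the germ cell protein BORIS and carrying a single copy of Ctcf. The values of that comparison are therefore given as a description.

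Long polyunsaturated fatty acids are built from dietary precursors by alternating desaturation and elongation. Fads2 introduces the first double bond, Elovl5 and Elovl2 add carbons, and Fads1 introduces a further double bond. Stearoyl-CoA desaturases, here Scd1 and Scd2, turn saturated into monounsaturated fatty acids, and Elovl6 lengthens saturated and monounsaturated chains. Testis is known for phospholipids rich in very long polyunsaturated chains, which are made in germ cells and in Sertoli cells, the somatic cells that nurse them.

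Testes came from C57BL/6 mice of 3 months. There were 4 genotypes. WT mice carried both genes intact (Ctcf+/+Boris+/+), and CTCF HET mice had a single Ctcf copy (Ctcf+/-Boris+/+). BORIS KO mice lacked only Boris (Ctcf+/+Boris-/-), and the combined mutant (CM, DKO in the labels) joined both lesions (Ctcf+/-Boris-/-). CM mice were obtained by crossing CTCF HET females with BORIS KO males. The deletions were carried by the whole animal, somatic cells of the testis included. Whole testis RNA came from 3 germ cell-enriched preparations for each genotype, each pooled from 4 mice, and still held somatic RNA. Round spermatids (RS) and spermatocytes (SC) were sorted by DNA content to a stated purity of 93.7 ± 2.3% and 81.5 ± 3.7%, with 3 libraries for each genotype, except 2 for WT SC. CTCF, RNA polymerase II (Pol2) and the histone mark H3K4me3 were mapped by ChIP-seq in WT and CM preparations, and BORIS in WT.

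Library totals ran from 10437683 to 42055813 counts in whole testis, from 47740650 to 98545423 in RS and from 53337530 to 88946702 in SC. Ctcf, the targeted gene, was at 42.7 ± 2.17 CPM (counts scaled to library size, per 1000000 counts) in WT whole testis. It was at 27.0 ± 3.75 CPM in CTCF HET, at 34.5 ± 4.04 with BORIS KO and at 25.9 ± 1.35 in CM (SD, n = 3). In RS and SC the libraries labelled CM did not have less Ctcf than WT: their means were 84.9 ± 74.6 against 35.5 ± 10.9 CPM in RS (n = 3) and 53.5 ± 31.0 CPM (n = 3) against 34.8 ± 1.73 CPM (n = 2) in SC. The second CM RS library had the lowest mean correlation with its own group, 0.936. The CTCF HET SC libraries detected 12018 to 13406 genes, the fewest of any group.

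The sequence under the BORIS peaks is shown first because 5 of the 9 loci carried a BORIS peak, and because CTCF and BORIS recognise the same core. The loci were taken with 5 kb on each side, and the share of all such loci with a BORIS peak was not counted. Within 1 kb of a start, 4 members and 14.1% of protein-coding genes had one. Each run is 200 bases of mm9 centred on the BORIS summit, on the strand of the gene and 5′ to 3′, and capitals mark matches on either strand to the CTCF core AGNNGGC. The Fads1 window (chr19:10257157-10257356, + strand) has its summit 121 bp upstream of the start. The Fads2 window (chr19:10175287-10175486, - strand) lies in the first part of the gene, in an intron, and its summit is 606 bp past the start. The Scd2 window (chr19:44370358-44370557, + strand) is intronic, 2292 bp downstream of the start. The Elovl2 window (chr13:41315920-41316119, - strand) is upstream, with its summit 246 bp from the nearest start.
Fads1: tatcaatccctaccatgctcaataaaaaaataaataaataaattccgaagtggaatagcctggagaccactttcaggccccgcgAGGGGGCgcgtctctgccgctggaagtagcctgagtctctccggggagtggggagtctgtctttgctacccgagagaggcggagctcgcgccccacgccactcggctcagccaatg
Fads2: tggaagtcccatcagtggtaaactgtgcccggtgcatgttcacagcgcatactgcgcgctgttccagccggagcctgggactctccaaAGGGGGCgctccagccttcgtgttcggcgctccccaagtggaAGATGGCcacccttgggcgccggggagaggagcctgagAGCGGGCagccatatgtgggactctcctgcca
Scd2: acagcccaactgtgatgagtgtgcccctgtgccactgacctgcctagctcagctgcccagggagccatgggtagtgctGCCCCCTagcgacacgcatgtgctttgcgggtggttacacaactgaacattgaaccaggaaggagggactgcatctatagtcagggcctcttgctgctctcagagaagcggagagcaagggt
Elovl2: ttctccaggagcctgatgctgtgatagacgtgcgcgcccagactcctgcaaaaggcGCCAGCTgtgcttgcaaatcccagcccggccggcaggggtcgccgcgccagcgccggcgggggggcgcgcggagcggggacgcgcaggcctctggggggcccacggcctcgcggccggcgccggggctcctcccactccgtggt

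Fads1, Fads2 and Scd2 had the core in the form AGGGGGC, read on the other strand in Scd2. The Fads2 window held 3 core matches and the other 3 windows held 1 each. The Fads3 window, which lies wholly in coding sequence (chr19:10116186-10116385), had no match to these letters. The core was found in 82.2% of the 7652 BORIS windows of this length and in 50.3% of the 20255 windows of 200 bases before protein-coding gene starts, and AGGGGGC in 38.2% and 10.2%.

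In WT testis the family was spread over a wide range, with Elovl2 highest in every preparation on a scale of CPM per kb of annotated exon. Elovl2, which lengthens polyunsaturated chains of intermediate length, was at 75.2 CPM per kb in whole testis, 112 in RS and 173 in SC. Fads2 was at 41.9 CPM per kb in whole testis but 1.67 in RS and 3.37 in SC, and its short annotated exon model of 1508 bp may overstate these levels. Scd2 was at 13.9, Elovl5 at 12.5 and Fads1 at 11.3 CPM per kb in whole testis. Those 3 genes were much lower in the sorted cells, with 0.0163, 3.87 and 0.635 CPM per kb in RS. Elovl6 was at 2.33 CPM per kb in whole testis and 1.95 in RS. Scd1 (2.32), Fads3 (1.22) and Fads6 (0.558) closed the order in whole testis. The 2 tables were normalized apart, and the whole testis and sorted cell libraries were made by different protocols, so that levels set across them are side by side and not compared by a test.

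**Figure D1:**
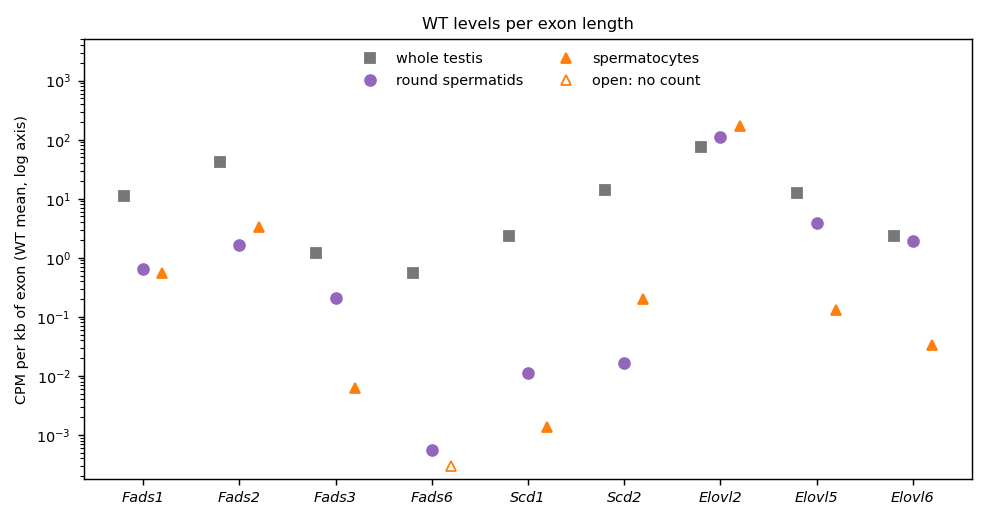
Mean WT level of each gene, in CPM per kb of annotated exon on a log axis, in whole testis (n = 3), round spermatids (n = 3) and spermatocytes (n = 2), with an open symbol for a gene with no count. Elovl2 is the highest gene in all 3 preparations, and Scd1 and Fads6 are the lowest in the sorted cells.

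The order of neighbouring genes in WT whole testis was not always beyond the spread between libraries. In CPM, Fads1 ranged from 32.1 to 46.4, Elovl5 from 35.7 to 52.9, Fads2 from 48.3 to 84.7 and Scd2 from 58.0 to 107, so that each overlapped the next. Elovl2, at 273 to 311 CPM, stood clear of them. Elovl6 (8.45 to 18.7 CPM) and Scd1 (5.78 to 15.4 CPM) overlapped, as did Fads3 (2.05 to 6.36 CPM) and Fads6 (2.67 to 5.49 CPM).

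In CM whole testis 6 of the 9 genes passed the test as higher than WT (edgeR's quasi-likelihood test, adjusted p under 0.05 and fold change above 2) and none as lower, beside 15.3% of 16378 tested genes called higher and 5.9% called lower. These were Fads1, Fads2, Fads6, Elovl5, Scd1 and Scd2. The same 6 had every CM library above every WT library, which held for 26.2% of all tested genes. This is the comparison in which the genes had been noticed, and nothing is read from the counts.

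The desaturases of the polyunsaturated pathway were among them. Fads1, the delta-5 desaturase, was at 46.4, 38.8 and 32.1 CPM in the WT libraries and at 309, 120 and 245 in CM, a log2 fold change of 2.503 ± 0.357 (SE). Fads2, the delta-6 desaturase, was at 84.7, 56.5 and 48.3 CPM in WT and at 891, 197 and 271 in CM (2.82 ± 0.56). The groups did not overlap in either gene, and CM replicate 1 was the highest library in both. Fads6, an annotated member of the family of uncertain substrate, was at 5.49, 2.98 and 2.67 CPM in WT and at 22.6, 5.79 and 11.2 in CM (1.79 ± 0.51), with the second CM library only just above the highest WT library. Fads3 was at 6.36, 2.05 and 3.56 CPM in WT and 7.16, 5.37 and 4.64 in CM, and the groups overlapped (0.49 ± 0.42).

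The stearoyl-CoA desaturases Scd1 and Scd2 had, with Fads2, the highest fitted differences of the 9 genes. They are close paralogs of each other, and how reads shared by such copies were counted is not stated. Scd1 was at 15.4, 12.4 and 5.78 CPM in WT and at 145, 26.3 and 79.5 in CM (2.87 ± 0.60). Scd2 was at 107, 62.4 and 58.0 CPM in WT and at 910, 207 and 367 in CM (2.69 ± 0.53). All CM libraries of both genes were above all WT libraries, with replicate 1 highest and replicate 2 lowest. Ranked by fitted fold change from the top of the 16378 tested genes, Scd1 was at position 81, Fads2 at 94, Scd2 at 133 and Fads1 at 225.

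The elongases were divided. Elovl5, which lengthens the products of Fads2, was at 52.9, 43.4 and 35.7 CPM in WT and at 357, 84.6 and 180 in CM (2.21 ± 0.47), without overlap. Elovl6 was at 18.7, 14.4 and 8.45 CPM in WT and at 24.8, 14.6 and 18.2 in CM (0.45 ± 0.34), with overlap. Elovl2 ran the other way: 285, 273 and 311 CPM in WT against 208, 222 and 180 in CM, a log2 fold change of -0.53 ± 0.22. Every CM library of Elovl2 was below every WT library, which held for 22.3% of tested genes, and the difference did not pass the test.

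**Figure D2:**
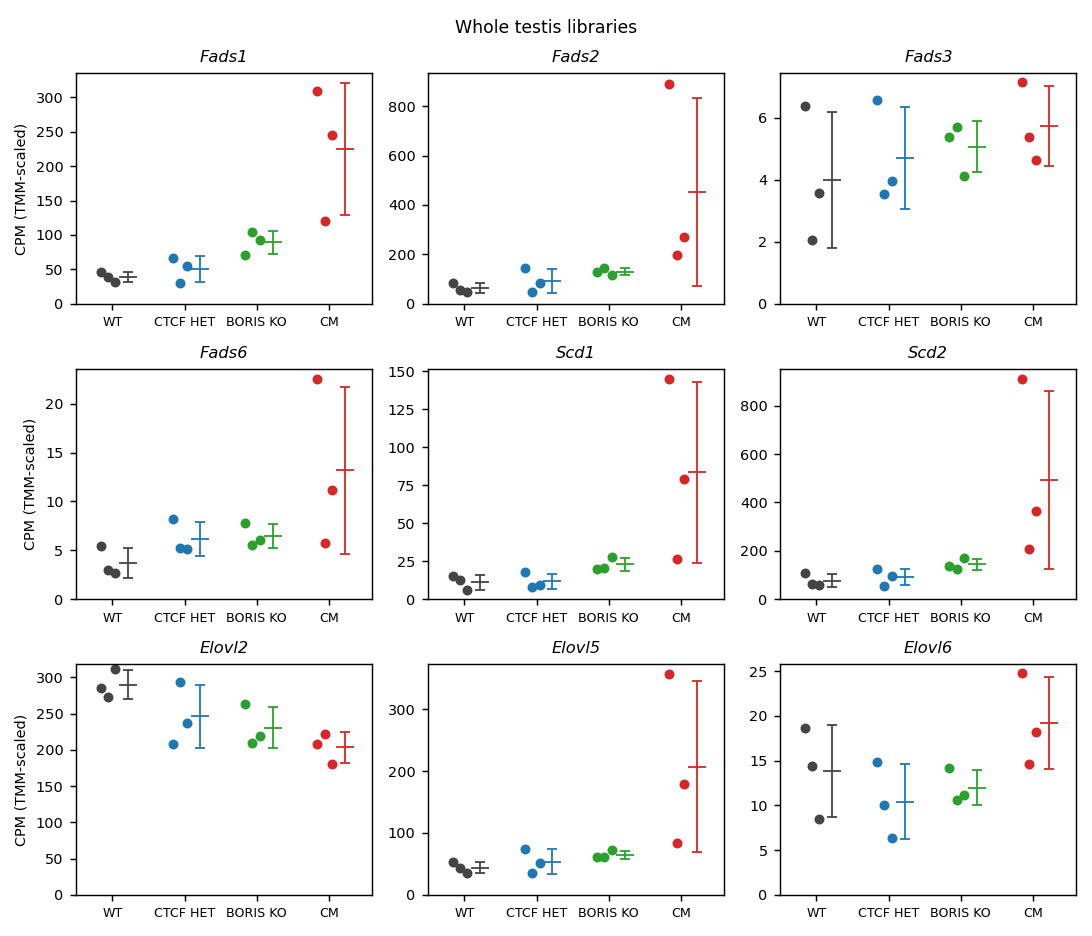
CPM of each gene in the 3 whole testis libraries of each genotype (points, replicates 1 to 3 from left to right), with the mean and SD beside them. Fads1, Fads2, Scd1, Scd2 and Elovl5 have their highest libraries in CM, with CM replicate 1 at the top, and Elovl2 has its lowest.

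The size of these differences rested in part on single libraries. Without CM replicate 1 the fitted fold change against WT went from 7.08 to 3.78 in Fads2, from 6.44 to 3.87 in Scd2, from 7.31 to 4.77 in Scd1, from 4.64 to 3.06 in Elovl5 and from 3.47 to 2.28 in Fads6. In Fads1 it went from 5.67 to 4.75. Without WT replicate 2, WT replicate 3 or CM replicate 3, no member passed the test, and 11, 3 and 4 genes of the whole table did. The Fads1 fold changes were then 5.61, 5.18 and 5.69. Fads6 also missed the test without WT replicate 1 (edgeR adjusted p = 0.051) and without CM replicate 1 (0.0516).

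Fewer cells of a type and less RNA per cell cannot be told apart in such bulk samples, and markers of other cells moved in the same libraries. The summed level of 8 Leydig cell markers ran from 388 to 642 CPM in WT and from 1943 to 4084 in CM, and 6 of the 8 were called higher. For 14 Sertoli cell markers the ranges were 382 to 587 in WT and 889 to 1687 in CM, with 5 called higher. Of 10 testicular macrophage markers 8 were called higher, with sums of 497 to 689 in WT and 553 to 829 in CM. Spermatogonia markers summed to 78.2, 79.6 and 70.5 CPM in the WT libraries and to 410, 130 and 253 in CM, with 2 of 10 called higher. CM replicate 1 was highest and replicate 2 lowest, as for Fads1, Fads2, Fads6, Elovl5, Scd1 and Scd2. The 2 called spermatogonia markers were Kit (2.86 ± 0.53) and Zbtb16 (2.58 ± 0.50). Kit had the highest WT level of that list, 27.5 CPM on average. The paper reports KIT protein in CM spermatocytes and round spermatids as well, so this sum need not stand for spermatogonia alone. Other sums were lower in CM. That of 10 round spermatid markers ran from 12970 to 21040 CPM in WT and from 3820 to 11790 in CM. The ranges were 2947 to 3133 and 1343 to 2245 for 10 spermatocyte markers. For 6 peritubular myoid markers they were 327 to 350 and 78.0 to 120. The myoid sum was mostly Actg2, at 322 CPM on average in WT and called lower in CM (-1.998 ± 0.346). Des, of the same list, was called higher (1.57 ± 0.40). The part of all these cell type markers in the result was not tested. All 8 Leydig markers were under 1 CPM on average in WT RS, as were 11 of the 14 Sertoli markers, and in WT SC this held for 7 and 10.

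In BORIS KO the members stood nearer to WT than in CM. In BORIS KO whole testis 6 members (Fads1, Fads2, Fads6, Elovl5, Scd1 and Scd2) had all libraries above all WT libraries, which held for 13.4% of tested genes, and Elovl2 had all below, which held for 10.2%. No member passed edgeR's test, in which 0.0551% of genes were called. An unadjusted p under 0.05 was found for 6 members and for 16.6% of tested genes. DESeq2 called 2 members, and 225 genes of the whole table. Fads1 was at 71.0, 104 and 92.5 CPM in BORIS KO, a log2 fold change of 1.20 ± 0.21 (edgeR adjusted p = 0.14). Fads2 was at 127, 145 and 118 CPM (1.06 ± 0.21, adjusted p = 0.175). In both genes every BORIS KO library lay above all WT and below all CM libraries.

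Same-numbered whole testis libraries deviated from their group means in similar ways, though no label states that they were paired. With the replicate as a block edgeR called Fads1 (1.19, adjusted p = 0.0161) and Fads2 (1.08, adjusted p = 0.0104) higher in BORIS KO, beside 1.26% of genes. Scd2, at 138, 127 and 170 CPM in BORIS KO, had an adjusted p of 0.0489 in that fit but a fold change under the threshold. Scd1 was at 20.2, 20.5 and 28.1 CPM and Elovl5 at 60.5, 60.6 and 72.4, with adjusted p of 0.171 and 0.0573 in the blocked fit. Elovl2 was at 263, 209.5 and 219 CPM in BORIS KO, below the 273 to 311 of WT (-0.32 ± 0.15, edgeR adjusted p = 0.33). Fads6 was at 7.84, 5.54 and 6.05 CPM, just above the WT range, while Fads3 (5.38, 5.70 and 4.13 CPM) and Elovl6 (14.2, 10.6 and 11.1 CPM) lay within it. Leydig marker sums were 762 to 1554 CPM and Sertoli marker sums 680 to 765 in BORIS KO, both above the WT ranges, as were the spermatogonia sums of 104 to 136. Spermatocyte sums of 2510 to 2612 were below the WT range. So were peritubular myoid sums of 171 to 197, which in WT were mostly Actg2. The part of these markers in the result was not tested.

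No member passed the test in CTCF HET. In CTCF HET whole testis 0.00621% of genes were called. Of the 9 members edgeR and DESeq2 called 0, with 0 at an unadjusted p under 0.05. Of all tested genes 2.63% had such a p, and DESeq2 called 3. The libraries of the 2 genotypes overlapped in every member. Fads1 was at 66.8, 30.1 and 54.1 CPM, Fads2 at 144, 48.5 and 84.0, Scd2 at 126, 56.2 and 94.3, and Elovl2 at 208, 293 and 237. Replicate 1 was the highest of the first 3 genes and the lowest of Elovl2. The fitted log2 differences ran from -0.41 ± 0.34 in Elovl6 to 0.72 ± 0.32 in Fads6.

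**Figure D3:**
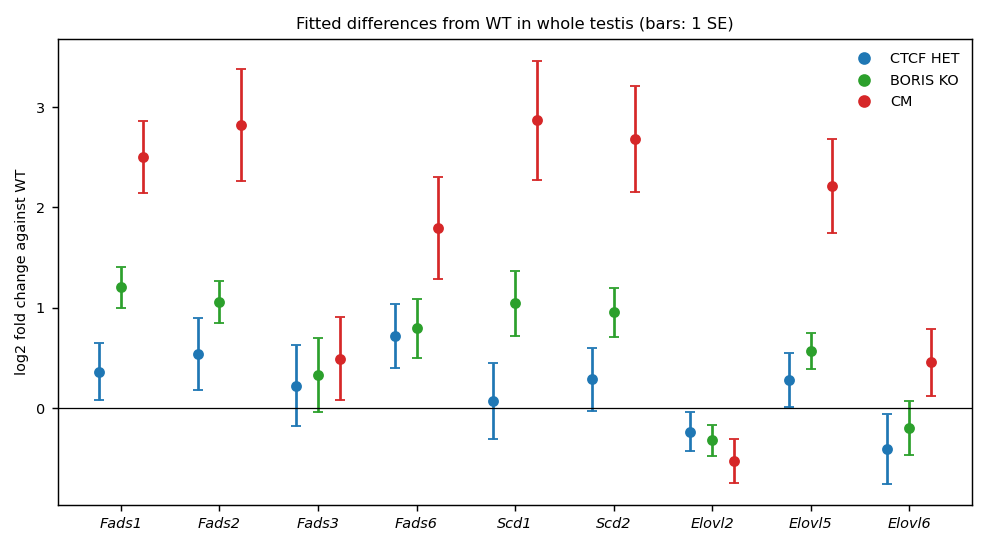
Fitted log2 fold change of each gene against WT in whole testis of the 3 mutants, with bars of 1 SE. The 3 comparisons share the WT libraries; Fads1 stands at 0.36, 1.20 and 2.503, and Elovl2 is below 0 in all 3.

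Setting CM against each single mutant asked what the second lesion added. Against CTCF HET, 5 members were called higher (Fads1, Fads2, Elovl5, Scd1 and Scd2), beside 10.4% of tested genes, with log2 fold changes of 1.92 ± 0.50 in Elovl5 to 2.79 ± 0.57 in Scd1 and edgeR adjusted p of 0.0222 to 0.0378. No member was called without CTCF HET replicate 2 or 3 or CM replicate 3, when 0, 8 and 2 genes of the table were. Against BORIS KO no member was called, and 0.006% of genes were. There 6 members and 21.6% of tested genes had an unadjusted p under 0.05. DESeq2 called 5 members, and 1032 genes of the whole table. Of the members, 5 had all CM above all BORIS KO libraries, which held for 14% of genes. With the replicate block edgeR called 4 higher, Fads1 (1.22, adjusted p = 0.0494), Elovl5 (1.42, 0.0402), Scd1 (1.55, 0.0402) and Scd2 (1.47, 0.0414), beside 3.58% of genes. Without CM replicate 2, 5 members were called, when 1279 genes of the table were. Both comparisons share the CM libraries.

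In sorted WT germ cells Elovl5, Elovl6 and Fads3 were higher in RS, after meiosis, and Scd2 in the meiotic SC. In RS against SC, 3 members were called higher (Elovl5, Elovl6 and Fads3) and 1 lower (Scd2) of the 7 tested, beside 29.3% and 23% of tested genes. Elovl6 was at 8.18, 12.5 and 14.1 CPM in the RS libraries and at 0.229 and 0.173 in SC, a log2 fold change of 5.93 ± 0.38 (edgeR adjusted p = 7.54e-06). Elovl5 was at 12.8, 14.9 and 13.2 CPM in RS and at 0.552 and 0.36 in SC (5.00 ± 0.25, adjusted p = 2.4e-06). The stages did not overlap in either gene. Scd2 was at 0.0888, 0.103 and 0.075 CPM in RS and at 0.875 and 1.33 in SC (-3.52 ± 0.46, adjusted p = 0.000326). It was not called with all groups in one fit (-3.61, adjusted p = 0.0641). Leydig marker sums were 1.19 to 1.41 CPM in WT RS and 9.73 to 10.5 in WT SC. Sertoli sums were 9.82 to 12.3 and 23.0 to 23.5, and spermatogonia sums 41.3 to 43.2 and 158 to 168. Macrophage, endothelial and peritubular myoid sums were higher in WT RS. These sums rest on few genes, since 8 of 10, 3 of 6 and 4 of 6 of the markers were under 1 CPM on average in WT RS. The part of other cells in the Scd2 difference was not tested.

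Fads3 had 132 counts in the 3 WT RS libraries and 3 counts in the 2 WT SC libraries, a ratio of 34.2 per unit depth with an exact 95% counting interval of 11.4 to 168, which covers counting error only. Elovl2 was somewhat lower in RS, at 427, 443 and 421 CPM against 686 and 644 in SC (-0.53 ± 0.08, edgeR adjusted p = 0.000824), under the fold threshold. Fads2 was at 3.57, 2.28 and 1.69 CPM in RS and 5.00 and 5.18 in SC (-0.92 ± 0.30, adjusted p = 0.029), also under it. Fads1 was at 2.05, 2.28 and 2.25 CPM in RS and 1.93 and 1.81 in SC, which did not pass (adjusted p = 0.23). Scd1 and Fads6 were not tested between the stages: Scd1 had at most 6 counts in any RS library and at most 1 in any SC library, and Fads6 had at most 2 in SC. A floor of 3 counts corresponds to 0.0329 to 0.0648 CPM in these libraries.

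In sorted cells of BORIS KO mice Elovl2 was a little lower at both stages. In RS it was at 366, 381 and 317 CPM against 427, 443 and 421 in WT (-0.32 ± 0.09, edgeR adjusted p = 0.0152), and in SC at 518, 531 and 548 against 686 and 644 (-0.32 ± 0.06, adjusted p = 0.000859). The groups did not overlap, and both differences were under the fold threshold. Elovl5 (-0.44 ± 0.13, adjusted p = 0.016) and Elovl6 (-0.61 ± 0.21, adjusted p = 0.0336) were also lower in BORIS KO RS, by less than the threshold. Without a fold threshold 4 of 7 members and 8658 of 15513 genes passed in BORIS KO RS, so that the members' count is near the background. In BORIS KO SC 1 of 6 members and 8207 of 14338 genes passed. Scd2 was the 1 member called in BORIS KO RS, beside 13.9% of genes called higher: its counts were 8, 5 and 4 in WT and 22, 16 and 29 in BORIS KO (1.66 ± 0.52, adjusted p = 0.0218). It was not called without WT replicate 3 (adjusted p = 0.0526) or without BORIS KO replicate 1 (0.0983) or 3 (0.1), nor with the replicate as a block (0.0584). In BORIS KO SC no member was called by edgeR, beside 8.43% of genes, or by DESeq2, which called 1003 genes. An unadjusted p under 0.05 was found for 1 of 6 members and 61.8% of genes.

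CTCF HET germ cells differed in Elovl6, which was also below all WT libraries in CM RS. It was at 7.70, 6.24 and 7.63 CPM in CTCF HET RS, below all WT RS libraries (-0.72 ± 0.22, edgeR adjusted p = 0.0429, under the fold threshold), and at 2.54, 0.905 and 1.15 CPM in CTCF HET SC, above the WT values of 0.229 and 0.173. The difference of the 2 effects was -3.66 ± 0.62 on the log2 scale (edgeR interaction, adjusted p = 0.00238), and 10.6% of genes were called in that direction. The CTCF HET SC libraries are those that detected the fewest genes, and the part of this in the result was not tested. No member passed edgeR's thresholds in CTCF HET RS, where 5.39% of genes were called, or in SC, where 4.89% were. In RS 1 of 6 members and 38.2% of genes had an unadjusted p under 0.05. DESeq2 called 0 members and 930 genes. In SC such a p held for 1 of 6 members and 30.2% of genes, and DESeq2 called 1 member and 875 genes.

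In the sorted libraries labelled CM no member was called by edgeR. In RS 0.00654% of genes were called. There 2 of 6 members and 20.5% of genes had an unadjusted p under 0.05, and DESeq2 called 1 member and 1387 genes. In SC 0.434% of genes were called. Such a p held for 1 of 6 members and 29.8% of genes there, and DESeq2 called 1 member and 1175 genes. Fads1 was at 2.33, 15.3 and 2.19 CPM and Fads2 at 4.12, 20.5 and 4.73 in CM RS. The high value in both was that of replicate 2, the library that stood apart, and without it their log2 differences from WT went from 1.68 to 0.05 and from 2.05 to 0.82. Its summed spermatogonia markers were 374 CPM, against 66.1 and 78.8 in the other CM RS libraries and 41.3 to 43.2 in WT RS. That list includes Kit, whose protein the paper reports in CM round spermatids. The summed Sertoli markers of replicate 2 were 65.2 CPM, against 24.8 and 23.6 in the other CM RS libraries. The part of either in the result was not tested. Elovl6 in CM RS was at 6.26, 6.34 and 2.92 CPM, below all WT RS libraries. It was called there only with all groups in one fit (-1.16, edgeR adjusted p = 0.0268), when 1987 genes of the table were. In CM SC it ranged from 0.198 to 1.02 CPM, which overlapped the WT values. In CM SC, Elovl5 was at 1.26, 1.56 and 3.04 CPM against 0.552 and 0.36 in WT (2.08 ± 0.54, adjusted p = 0.0782). Without CM SC replicate 1, edgeR called Elovl5 (2.32, adjusted p = 0.017) and Elovl6 (2.23, adjusted p = 0.0395). In that fit 2163 genes of the whole table were called, against 64 with all libraries. The effects of BORIS KO and of CM were also each compared between RS and SC. No member was called, where 13.4% and 3.51% of genes were. For BORIS KO 0 of 7 members and 30.1% of genes had an unadjusted p under 0.05. DESeq2 called 0 members and 3412 genes. For CM such a p held for 3 of 8 members and 15.2% of genes, and DESeq2 called 2 members and 1458 genes.

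**Figure D4:**
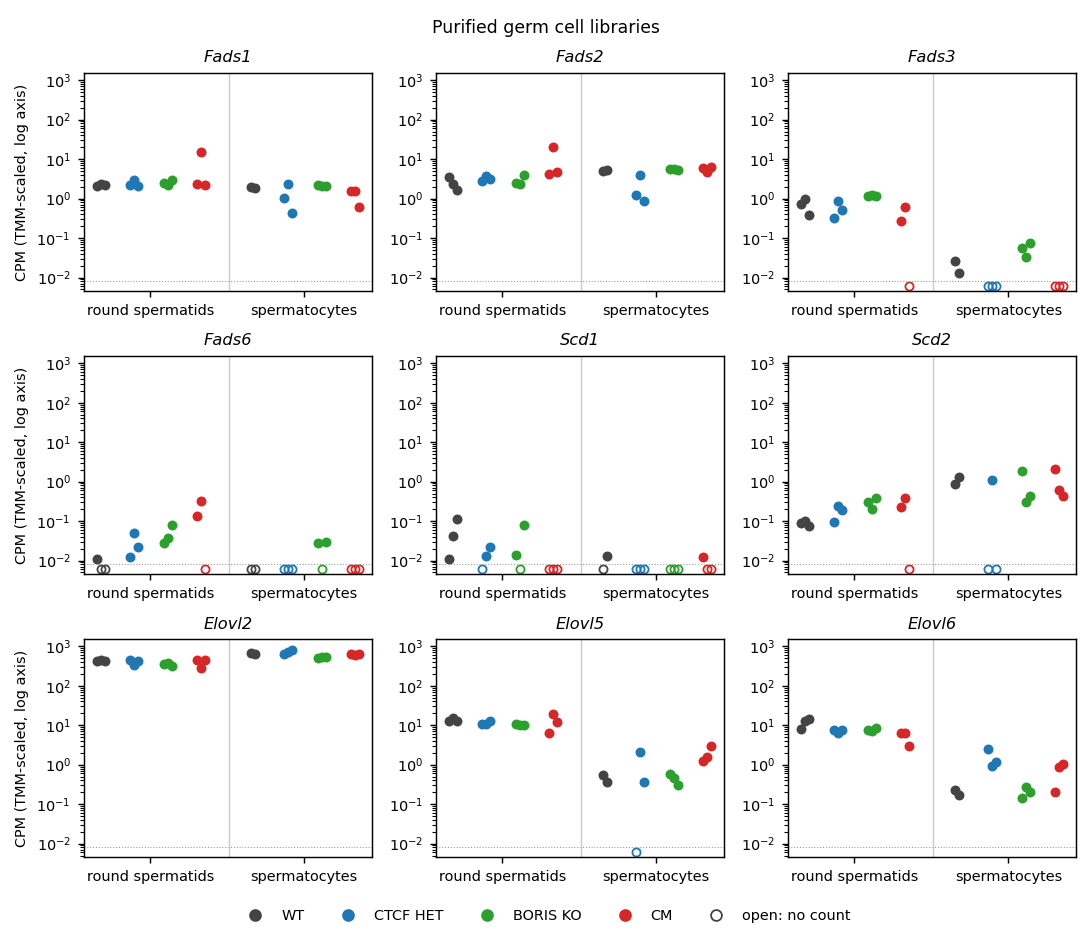
CPM of each gene in every round spermatid and spermatocyte library on a log axis, coloured by genotype, with open circles under the dotted line for libraries with no count. Elovl5 and Elovl6 are higher in round spermatids, and the 1 high CM round spermatid library of Fads1 and Fads2 is replicate 2.

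Other genes of the pathway were taken by name from lists chosen with earlier results known. The counts called are to be read beside the 15.3% of all tested genes called higher in CM whole testis and the 5.9% called lower. There 5 of 16 other elongation and desaturation genes were called higher and none lower, with a median log2 fold change of 0.99 beside 0.00 for all tested genes. Hsd17b12, which reduces the keto intermediate of each elongation cycle, was higher by 1.85 ± 0.39, and Cyb5r3, which feeds electrons to desaturases through cytochrome b5, by 1.51 ± 0.30. In fatty acid synthesis 3 of 11 were called higher, among them Acly (1.74 ± 0.26), the source of cytosolic acetyl-CoA, and Thrsp (3.74 ± 0.49). Of 15 genes of peroxisomal beta-oxidation, the last step to docosahexaenoic acid, 7 were called higher, led by Ehhadh (2.45 ± 0.43).

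Acyl-CoA synthetases were called in both directions, 6 higher and 4 lower of 11. Acsbg1 was higher (2.28 ± 0.44), whereas Acsbg2 (-1.64 ± 0.26) and Acsl1 (-1.68 ± 0.30) were lower. Ceramide synthases had 4 of 5 called higher, such as Lass2 (1.73 ± 0.34), and phospholipid acyltransferases 3 higher and 2 lower of 16. Among 16 lipogenic regulators 4 were higher, including Ppara (1.56 ± 0.31) and Mlxipl (2.43 ± 0.50), and 1 lower.

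Genes next to the members did not all move with them. Near the Fads1, Fads2 and Fads3 cluster on chromosome 19, Fen1 (-1.14 ± 0.27), Best1 (-1.02 ± 0.24) and Rab3il1 (-1.12 ± 0.26) were called lower in CM whole testis and Fth1, the ferritin heavy chain, higher (1.64 ± 0.40). Scd3 (0.93 ± 0.33) and Scd4 (-0.36 ± 0.39), next to Scd2 and Scd1, were not called. Near Fads6, Fdxr (1.85 ± 0.59) and C630004H02Rik (1.68 ± 0.40) were called higher.

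Over the 12 whole testis libraries the called members went up and down together. Pearson's r of log2 CPM was 0.985 between Elovl5 and Scd2, 0.983 between Fads2 and Scd2 and 0.954 between Fads1 and Fads2, while Elovl2 had -0.857 with Fads1. These libraries share 4 genotypes and the marker shifts given above, and the values are descriptive. Over the means of 12 genotype and preparation groups, the genes most like Fads2 among 14786 were Nudt19 (r = 0.997), Itga6 and Mpv17l, and those most like Elovl2 were Carf (0.992), 4921524L21Rik and 1700106N22Rik. The groups fall into 3 preparations that were normalized in 2 tables, which all genes share.

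At the promoters, taken as 1 kb on either side of an annotated start, 6 members had a WT CTCF peak (Fads1, Fads2, Fads3, Fads6, Elovl2 and Elovl5), as did 26.5% of 20255 protein-coding genes. Fads1, Fads2, Fads3 and Elovl2 had a BORIS peak as well, which 11% of genes had. The WT CTCF peak had no overlapping CM peak at 5 of the 6 promoters, and Elovl2 was the exception. Among all genes this held for 3594 of the 5376 with a WT CTCF promoter peak, so that the members' count is near the background. Fads1, Fads2 and Fads3 joined CTCF, BORIS and no CM CTCF peak, a class that held 5.35% of genes. With only the upper 50% of heights in each list, 1 promoter, that of Fads2, had a WT peak without a CM peak, as did 6.64% of genes.

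The single peaks differed in strength within their lists. At Elovl2 the WT CTCF peak (chr13:41315266-41316414) stood at the 99.2 percentile of heights in its list, and the CM peak at the 79.8 percentile of its own. At Fads2 the WT CTCF peak over the intron (chr19:10175167-10176172) stood at the 60.3 percentile and the BORIS peak at the 91.4 percentile. At Fads1 the WT CTCF peak (chr19:10257166-10257402), just upstream of the start, stood at the 38 percentile and the BORIS peak at 71.9. The promoter peaks of Fads6 and Elovl5 were near the bottom of the WT list, at 4.19 and 4.62. Scd2 had no promoter peak but 2 CTCF peaks in the gene, at 1234 and 2254 bp from the start, both with a CM peak, and Scd1 had none within 5 kb. Over all loci with 5 kb on each side, 14 WT CTCF peaks were listed, 7 of them without a CM peak, against 43.9% of all 34625.

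Pol2 and H3K4me3 at the same promoters were listed as follows. A Pol2 promoter peak was found in WT at Elovl2 and Elovl5 (40.9% of genes), and in CM (48.3% of genes) at these and at Fads2, where WT had none, a change seen in 8.86% of genes. In CM the Fads2 Pol2 peak (chr19:10174431-10176553) covered the position of the WT CTCF and BORIS peaks. H3K4me3 was listed at 7 promoters in both genotypes, all but those of Fads3 and Scd1, beside 54.1% of genes in WT and 58.9% in CM. With only the upper 50% of scores in each list, 3 members had an H3K4me3 promoter peak in WT and 6 in CM, and Fads2, Fads6 and Scd2 had it in CM only, as did 3.76% of genes. Each list stands for 1 genotype, with no replicate error, and heights were not compared between lists.

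The promoter classes were set beside the calls, without a test. In CM whole testis 16% of 15022 protein-coding genes were called higher, and 15.9% of the 10071 without a WT CTCF peak. With WT CTCF and BORIS peaks the share was 13.5% of 1036 without a CM CTCF peak and 14.9% of 1068 with one. With WT CTCF but no BORIS it was 16.2% of 2278 without a CM CTCF peak and 23.6% of 569 with one. Of the members with a WT but no CM CTCF peak, Fads1, Fads2, Fads6 and Elovl5 were called higher and Fads3 was not. Elovl2, with a CM CTCF peak, was not called. Of those without a promoter CTCF peak, Scd1 and Scd2 were called higher and Elovl6 was not.

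**Figure D5:**
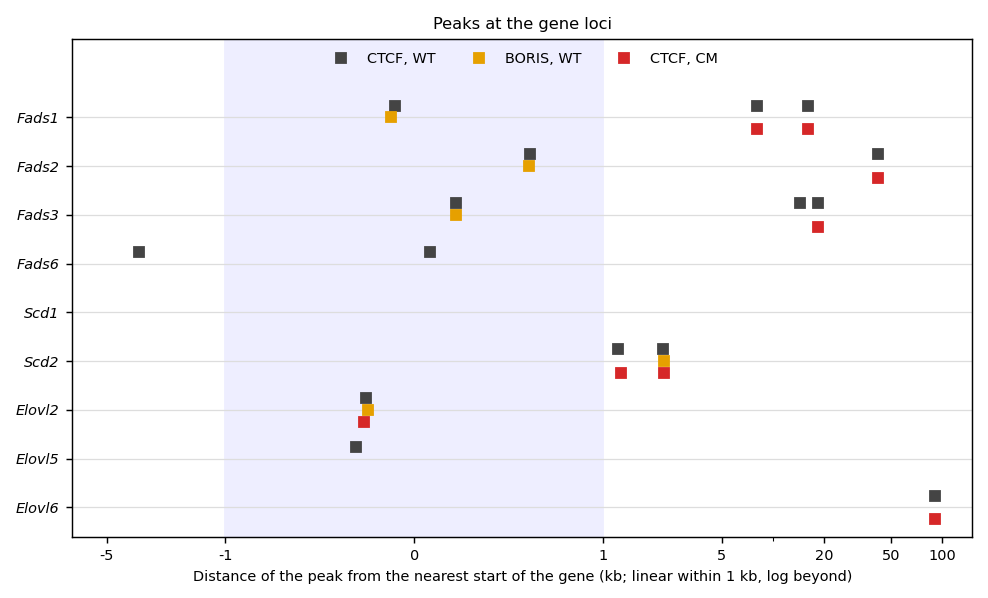
Distance of WT CTCF, WT BORIS and CM CTCF peaks from the nearest start of each gene, in kb, linear within 1 kb (shaded) and on a log scale beyond. Elovl2 is the only gene with a CM CTCF peak in the shaded promoter, and Fads1, Fads2 and Fads3 have CTCF and BORIS there in WT.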

How the data were processed

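Gene expression was deposited by the authors as unnormalized counts per symbol, in 1 table for whole testis (Ion Proton, RiboMinus RNA, TopHat2 and Bowtie2, mm9) and 1 for RS and SC (HiSeq, poly(A) RNA, STAR). The counting tool, annotation and strand setting are not given in the sources used here. For CTCF and BORIS the authors deposited peak positions, summits and heights (a signal with no stated normalization), and for Pol2 and H3K4me3 a MACS score per peak, 1 list per antibody and genotype. The processing notes also name Cufflinks 2.0.0 and DESeq2.

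Here each table was filtered (filterByExpr, 10 counts at the median depth and 15 in total), TMM-scaled and tested with edgeR 4.0.16's quasi-likelihood F test (R 4.3.3) between the groups compared, over all genes, with Benjamini-Hochberg adjustment. Calls needed adjusted p under 0.05 and a fold change above 2, and interactions the former only. DESeq2 1.42.0, RLE scaling, no low-count filter, all groups in one fit, the replicate block, other thresholds and leaving out each library were alternatives, and DESeq2 at the study's thresholds was added after seeing the data. Scripts were tested on simulated data. In these, DESeq2 made more false calls than edgeR in the interaction between cell types, also with a factorial design, so its interaction calls are read with that limit.

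The 9 members, the pathway lists and the markers were chosen with earlier results of these data known. Named genes are the members, up to 3 called genes of each list with the smallest adjusted p, genes starting within 100 kb of a member, and the 3 genes most like a member. The genes most like Fads1 are not reported here. Same-numbered whole testis libraries had correlated residuals (18 of 18 pairs above 0.1, mean 0.401). This held for 7 of 18 pairs in RS and 2 of 15 in SC, so the numbers were read as pairing whole testis libraries only. No label states such a pairing, and replicate 1 was also the deepest whole testis library of each genotype. The source of the correlation was not tested. Nothing says that RS or SC libraries came from separate animals, so p-values measure the spread between libraries. Exon lengths and promoters are from GENCODE vM1 on mm9, and peaks overlapped from 1 bp.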

Additional observations from a re-analysis of the deposited data

Results flagged for a closer look

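Elovl6 was flagged because its CTCF HET effect differed between cell types by a test of the difference itself, with a log2 difference of -3.66 between RS and SC. By the ratio of mean CPM it was lower in CTCF HET RS (-0.69 on the log2 scale) and higher in CTCF HET SC (2.93), with every library on its side of WT in both. The lower level in RS was not particular to CTCF HET, since Elovl6 was below all WT libraries in CM RS as well.

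In 2 further cases every mutant library lay on one side of WT in one preparation and on the opposite side in another, and these differences were not tested. The share of all genes with such a pattern was not counted, and WT SC had 2 libraries, so nothing is read from the number of cases. Fads1 in CM was higher in whole testis (2.52, log2 ratio of mean CPM) and lower in SC (-0.58). Elovl5 in BORIS KO was higher in whole testis (0.55) and lower in RS (-0.40).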

How the results depend on the processing

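Over 111 member differences and 1570 alternative values, 1527 kept their sign, none past the test was reversed, 58 no longer passed the test and 49 newly passed it. Members called in BORIS KO whole testis went from 0 to 2 with DESeq2, 2 with the replicate block and 1 with DESeq2 at the study's thresholds (adjusted p under 0.001). At those thresholds edgeR called 0 members in CM against WT and against CTCF HET whole testis, where DESeq2 called 3 in the latter. CM against BORIS KO had 5 with DESeq2 and 4 with the block. Calls over all genes moved too. DESeq2 called 225 genes in BORIS KO whole testis and 1032 in CM against BORIS KO, where edgeR called 9 and 1. In RS, BORIS KO had 0 with all groups in one fit, with the block and at the study's thresholds with either tool, and 4 without a fold threshold, where CTCF HET had 1. CM RS had 1 with DESeq2 and 2 with all groups in one fit. In SC, CTCF HET and CM had 1 each with DESeq2, and BORIS KO 1 without a fold threshold. The CTCF HET interaction had 2 with RLE scaling and 2 with DESeq2, and the CM interaction 2 with DESeq2, which made excess false calls in simulated interactions, and 1 with all groups. In RS against SC the Scd2 call was lost with all groups in one fit. The block changed no other count of member calls by over 1.5 times. Promoters with a WT but no CM CTCF peak fell from 5 to 1 with the upper 50% of heights, and WT H3K4me3 promoters from 7 to 3 with the upper 50% of scores. The cause of these changes was not tested.

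Leaving out each library gave 0 to 6 called members in CM against WT and 0 to 6 against CTCF HET, 0 to 5 against BORIS KO, 0 to 1 in BORIS KO whole testis, 0 to 2 in BORIS KO RS, 0 to 1 in BORIS KO SC, 0 to 2 in CM SC, 4 to 5 in RS against SC, and 1 to 3, 0 to 1 and 0 to 1 in the CTCF HET, BORIS KO and CM interactions. Over all genes, calls ran from 3 to 4383 in CM against WT whole testis. They ran from 0 to 3513 against CTCF HET and from 0 to 1279 against BORIS KO. Where a group is left with 2 libraries or 1, the spread is taken from the libraries that remain. Peak lists have no replicates and unknown depth. In sorted cells Scd1 was too sparse to test, and Fads6 was tested only in the CM interaction, where it has no usable error.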
